A study of Mus musculus with 6 samples.

Results

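Transcripts of the DNA replication machinery were followed in whole mouse pancreases at embryonic day (e) 15.5, with and without the chromatin protein Jarid2. The genes are 49 listed components and regulators of replication and S phase, of which 48 were measured among 18194 genes in all. They were listed by gene name, and no signal or fold change enters the rule, although earlier results of these data were known when the list was made. A gene was read from the probe set, a group of short probes for 1 transcript, that carries its symbol alone and has the highest mean signal. The chromatin assembly factor subunit gene *Chaf1a* was not analysed here.

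RNA of 3 embryonic pancreases per group was hybridized to Affymetrix mouse arrays, 1 array each. Each label started from 50 ng of RNA and went through 2 rounds of cDNA. *Jarid2* Δpanc embryos carried floxed *Jarid2* alleles and the Pdx1-Cre transgene, which deletes exon 3 in pancreatic progenitors and their epithelial descendants. *Jarid2* WT embryos were labelled wild-type, and all 6 were e15.5 embryos of strain C57BL/6. The labels do not say which alleles the *Jarid2* WT embryos carried. The deletion was mosaic within the epithelium, and the mesenchyme, vessels and blood cells in the organ kept the gene. In a whole organ, fewer cells of a type and less RNA per cell cannot be told apart. The study made the arrays to look for expression changes behind impaired endocrine differentiation. It inspected general cell cycle regulators on them and reported no change except lower *Cdkn1a*, not significant by qRT-PCR. It also reported lower *Pak3* and *Ripply3*, and fewer cycling β-cells late in gestation. The values of the replication genes bear on whether the cell cycle machinery of the whole organ was altered. They do not resolve β-cells.

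The *Jarid2* transcript had signals of 335, 301 and 415 in *Jarid2* WT and 392, 398 and 355 in *Jarid2* Δpanc. The groups overlapped, at a log2 fold change of 0.13 with a standard error (SE) of 0.14. The other 2 probe sets of *Jarid2* had 0.06 and 0.01. Where the 3 lie relative to exon 3 was not analysed here, and a probe set outside that exon would not check the deletion. *Jarid2* WT replicate 3 stood apart, with a summed signal of 13936 for 10 skeletal muscle markers against 277 to 327 in the other 5 samples. *Xist* was at 12 to 24 in *Jarid2* WT replicates 1 and 2 and at 4197 to 4905 in the other 4 samples. The Y-linked *Eif2s3y* was at 506 and 560 in those 2 samples and at 5 to 13 in the others. By these transcripts *Jarid2* WT replicates 1 and 2 were male and the other 4 samples female. The only female control was the muscle-rich replicate 3, so sex and genotype can hardly be told apart in these samples. The part of sex in the fold changes was not tested.

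DNA replication starts at origins that are loaded, or licensed, before S phase. The origin recognition complex, with Cdc6 and Cdt1, places a ring of Mcm2 to Mcm7 on the DNA, and geminin (*Gmnn*) blocks Cdt1 once S phase has begun. Cdc45 and the GINS complex turn the ring into a helicase, and primase, polymerases, the clamp PCNA and its loader then copy both strands. E2F transcription factors switch on many of these genes together as cells pass from G1 into S phase. In the e15.5 pancreas the cycling cells include acinar and progenitor epithelium as well as mesenchyme.

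Replication transcripts had nearly the same signals in *Jarid2* Δpanc and *Jarid2* WT pancreases. The 48 genes had a median log2 fold change of 0.02, against 0.00 over all genes, with 21 negative and 27 positive. They ranged from -0.18 for the flap nuclease gene *Fen1* to 0.44 for the transcription factor gene *E2f1*, and the next in size was 0.20. In 35 of 48 genes the fold change was within 0.1 of zero. Summed over the 48 genes, the signal was 40929, 40554 and 40759 in *Jarid2* WT and 39745, 41567 and 42101 in *Jarid2* Δpanc. The sums of the groups overlapped.

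Of the 48, limma called 0 lower and 0 higher (adjusted p under 0.05), with a smallest adjusted p of 0.416, and called 0% of all genes in either direction. At an unadjusted limma p under 0.05, 1 gene was lower and 1 higher, beside 4.44% and 4.36% of all genes. The groups were apart with *Jarid2* Δpanc lower in 2 of 48 genes (4.17%, against 5.66% of all genes), and higher in 1 (2.08%, against 5.71%). These shares were near the background of all genes or under it. Among genes with a mean signal of at least 64, 8.48% lay below all controls and 7.5% above. Separation is more frequent with 5 samples. Leaving out any 1 of the 6 brought the number higher to between 3 (6.25%) and 6 (12.5%), beside 9.56% to 10.8% of all genes. With *Jarid2* WT replicate 2 left out the number lower was 6 (12.5%, against 9.76% of all genes), and with *Jarid2* Δpanc replicate 3 left out it was 5 (10.4%, against 9.19%). For 46 of 48 genes the 95% interval of the fold change lay wholly between -0.5 and 0.5 on the log2 scale, that is, within 1.41-fold in either direction. Among all genes with a mean signal of at least 64, a level that all 48 reached, 65.5% had such an interval. The exceptions were *E2f1* and *Pole*. The count was again 46 when genes that lay at the floor of 16 in every sample were left out, and the median SE of the 48 then rose from 0.0721 to 0.0997.

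**Figure D1:**
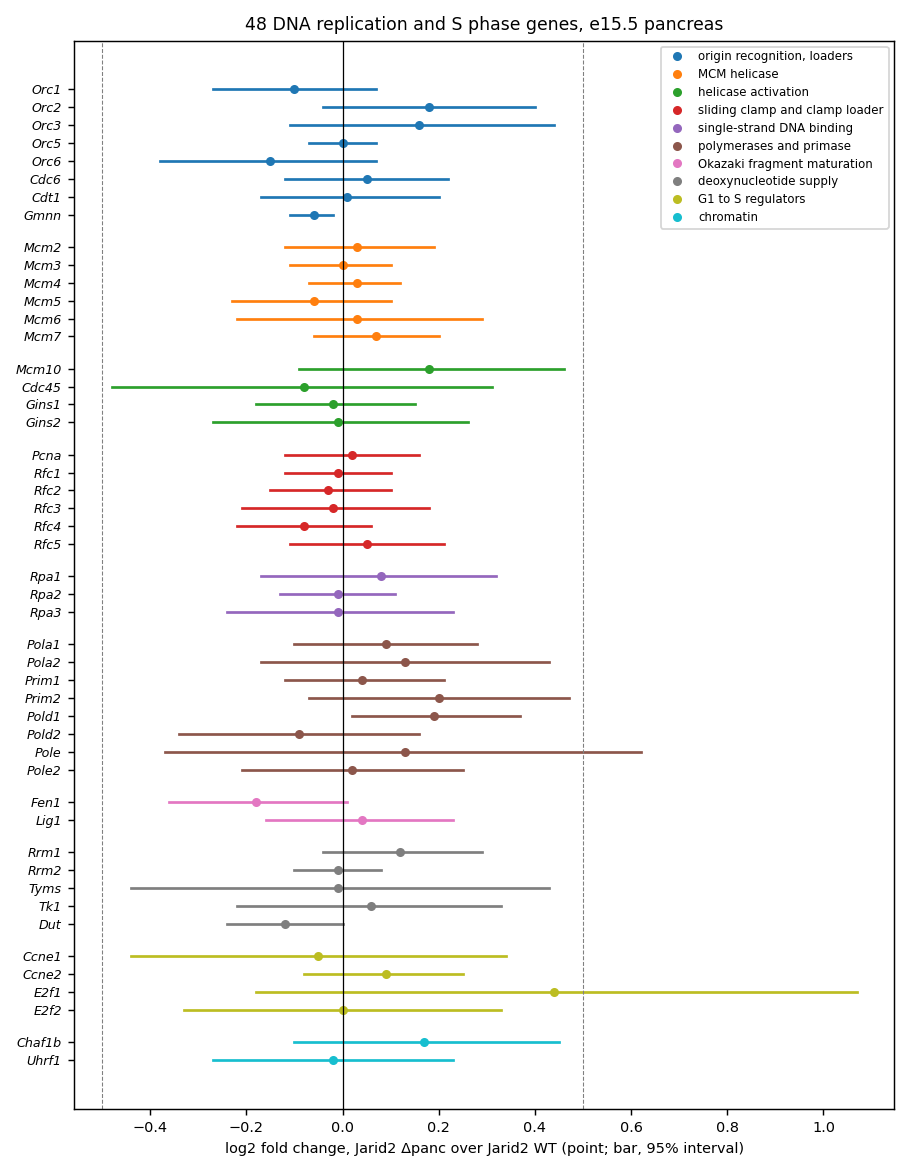
Log2 fold change of *Jarid2* Δpanc over *Jarid2* WT (horizontal axis, log2 units) for 48 replication genes grouped by role in colour, with points for the estimate and bars for the 95% interval from limma (3 samples per group). Dashed lines mark -0.5 and 0.5, and only the bars of *Pole* and *E2f1* cross them.

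The promoters of these genes held the E2F motif more often than those of all genes, a feature that the gene list did not use. RefSeq windows (GRCm38.p6), 250 bases before to 50 after a gene's start, were found for 41 of the 49 listed genes. The E2F motif was searched on both strands as TTTCCCGC, TTTCGCGC, TTTGCCGC or TTTGGCGC, forms that can overlap each other in opposite directions. It was in the windows of 15 of 41 genes (36.6%), against 2.6% of 27025 genes with a window. In 9 of the 15 a match lay before the start, with 12 matches in all, and in the other 6 it lay across or after it. The following 30-base stretches, chosen to show the motif in loading factors, helicase subunits, the clamp loader and a chromatin gene, run 5′ to 3′ on the gene's strand, with the match in capitals.
*Cdc6*, chr11:98908002-98908031, plus strand: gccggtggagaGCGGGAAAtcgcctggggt
*Orc1*, chr4:108579416-108579445, plus strand: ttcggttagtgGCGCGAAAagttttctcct
*Mcm5*, chr8:75109345-75109374, plus strand: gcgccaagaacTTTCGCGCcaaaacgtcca
*Mcm6*, chr1:128359734-128359763, minus strand: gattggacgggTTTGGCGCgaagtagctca
*Mcm7*, chr5:138172030-138172059, minus strand: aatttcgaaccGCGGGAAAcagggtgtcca
*Rfc3*, chr5:151651209-151651238, minus strand: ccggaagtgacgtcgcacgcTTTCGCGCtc
*Uhrf1*, chr17:56304117-56304146, plus strand: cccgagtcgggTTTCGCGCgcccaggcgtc

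*Mcm5* held 1 further match, which overlapped the one shown, and *Mcm6* held 2 further matches, which overlapped each other. The 15 genes with the motif had a median log2 fold change of 0.02 (range -0.10 to 0.19), and the 25 measured genes whose window lacked these letters had 0.00 (range -0.18 to 0.44). The fold changes of both sets overlapped over most of their range. A match describes letters and is not a measured binding site.

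Origin loading factors stayed close to the control, and geminin was slightly lower. *Gmnn* had signals of 1089, 1077 and 1057 in *Jarid2* WT and 1032, 1026 and 1029 in *Jarid2* Δpanc. The groups did not overlap, although the mean differed by only -4.21%. Its log2 fold change was -0.06 (SE 0.02, limma adjusted p = 0.416). This is the gene that limits Cdt1, the loader that geminin binds. *Cdt1* itself had 1713, 1936 and 1714 in *Jarid2* WT and 1723, 1767 and 1924 in *Jarid2* Δpanc, with 1 high sample in each group and a log2 fold change of 0.01 (SE 0.07).

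The gap in *Gmnn* depended in part on how the arrays were scaled. Only settings that rescale the arrays could make its groups overlap, because it has 1 probe set and the others keep the order of its samples. After quantile normalization the groups stayed apart, with a log2 fold change of -0.03. With each array centred on its median the *Gmnn* groups overlapped (log2 fold change -0.09), and with the floor genes left out its SE rose from 0.017 to 0.079.

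The origin recognition complex marks the sites where loading takes place. Its subunit gene *Orc2* had 133, 154 and 153 in *Jarid2* WT and 177, 167 and 154 in *Jarid2* Δpanc. The groups met at the lowest *Jarid2* Δpanc sample, and the log2 fold change was 0.18 (SE 0.08, limma adjusted p = 0.669). It was 0.11 without *Jarid2* WT replicate 1 and 0.11 with the mean of its probe sets. The subunits did not share a direction, with 0.16 for *Orc3*, 0.00 for *Orc5*, -0.10 for *Orc1* and -0.15 for *Orc6*. The loading ATPase gene *Cdc6* had 0.05. None of these 5 had an unadjusted p under 0.05.

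In the probe sets used, the 6 subunits of the Mcm2 to Mcm7 ring, the core of the replicative helicase, lay in a narrow band. Their further probe sets with a mean signal of at least 64 ranged from 0.02 to 0.31, both in *Mcm3*. In none of those were the groups apart. *Mcm7*, with the largest difference of the 6, had 3220, 3268 and 3443 in *Jarid2* WT and 3291, 3542 and 3616 in *Jarid2* Δpanc. The groups overlapped at a log2 fold change of 0.07 (SE 0.05, limma adjusted p = 0.794). The other subunits ranged from -0.06 for *Mcm5* to 0.03 for *Mcm2*, *Mcm4* and *Mcm6*. The widest 95% interval of the 6, that of *Mcm6*, ran from -0.22 to 0.29.

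Among factors that activate the helicase, the initiation factor *Mcm10* was the most positive. It had 265, 210 and 226 in *Jarid2* WT and 254, 283 and 255 in *Jarid2* Δpanc. *Jarid2* WT replicate 1 lay inside the range of the *Jarid2* Δpanc samples, and the log2 fold change was 0.18 (SE 0.10, limma adjusted p = 0.739). It was 0.28 without that sample, 0.11 without *Jarid2* WT replicate 2 and 0.34 with its most variable probe set. The GINS subunit *Gins1* had 355, 369 and 350 in *Jarid2* WT and 329, 381 and 352 in *Jarid2* Δpanc. There both the lowest and the highest of the 6 samples were *Jarid2* Δpanc, and the log2 fold change was -0.02 (SE 0.06). *Gins2*, of the same complex, had -0.01. *Cdc45* had -0.08, with the lowest signal, 139, in *Jarid2* Δpanc replicate 2 and 173 to 195 in the other samples.

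The sliding clamp and its loader had fold changes between -0.08 and 0.05. *Pcna*, the clamp that holds polymerases on the template, had 4383, 4480 and 4248 in *Jarid2* WT and 4138, 4492 and 4662 in *Jarid2* Δpanc. The *Jarid2* WT samples lay within the range of the *Jarid2* Δpanc samples, and the 95% interval of the log2 fold change of 0.02 ran from -0.12 to 0.16. The loader subunit *Rfc4* had 901, 790 and 848 in *Jarid2* WT and 797, 796 and 812 in *Jarid2* Δpanc. The groups overlapped, with a log2 fold change of -0.08 (SE 0.05, limma adjusted p = 0.813). The subunits *Rfc1*, *Rfc2*, *Rfc3* and *Rfc5* had -0.01, -0.03, -0.02 and 0.05.

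Replication protein A coats the single strands exposed by the helicase. Its large subunit gene *Rpa1* had 1540, 1800 and 1668 in *Jarid2* WT and 1600, 1904 and 1781 in *Jarid2* Δpanc. The spread within each group was larger than the difference of 0.08 (SE 0.09, limma adjusted p = 0.868). *Rpa2* and *Rpa3* each had -0.01.

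Polymerase and primase genes leaned to positive values, 7 of 8, with a median of 0.11. *Pold1*, the catalytic subunit of the lagging-strand polymerase δ, had 351, 385 and 371 in *Jarid2* WT and 389, 443 and 434 in *Jarid2* Δpanc. All *Jarid2* Δpanc samples lay above the controls, the nearest pair being 389 and 385, and the log2 fold change was 0.19 (SE 0.07, limma adjusted p = 0.525). The groups overlapped with each array centred on its median, with quantile normalization, and in the other probe set of *Pold1*, which had 0.13.

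*Prim2*, the large primase subunit, had 222, 241 and 241 in *Jarid2* WT and 306, 240 and 265 in *Jarid2* Δpanc. *Jarid2* Δpanc replicate 1 was high and the groups overlapped, at a log2 fold change of 0.20 (SE 0.10, limma adjusted p = 0.697). Without that sample it was 0.10. With the mean of its probe sets, including a probe set under the floor at a mean signal of 7.33, it was 0.06. The catalytic primase subunit *Prim1* had 869, 893 and 919 in *Jarid2* WT and 981, 851 and 935 in *Jarid2* Δpanc. Its groups overlapped throughout, and the log2 fold change was 0.04 (SE 0.06).

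Of the other polymerase subunits, *Pola2*, *Pole* and *Pole2* had 0.13, 0.13 and 0.02. *Pold2* was the single negative value, at -0.09. *Pole*, the catalytic subunit of the leading-strand polymerase, was the least certain, with a 95% interval from -0.37 to 0.62. *Pola1* is the one gene of the 48 on the X chromosome, and its signals were 402 and 392 in *Jarid2* WT replicates 1 and 2, 443 in replicate 3 and 450, 462 and 408 in *Jarid2* Δpanc. The part of sex in its log2 fold change of 0.09 was not tested.

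Okazaki fragments on the lagging strand are trimmed by Fen1 and sealed by DNA ligase 1. *Fen1* had 822, 956 and 872 in *Jarid2* WT and 825, 754 and 763 in *Jarid2* Δpanc. Only *Jarid2* Δpanc replicate 1 reached the controls, and the log2 fold change was -0.18 (SE 0.07, limma adjusted p = 0.602). A further probe set of *Fen1* had 626 to 700 in *Jarid2* WT against 585 to 607 in *Jarid2* Δpanc, with no overlap and a log2 fold change of -0.13. *Lig1* had 890, 915 and 878 in *Jarid2* WT and 843, 1013 and 904 in *Jarid2* Δpanc. The *Jarid2* Δpanc samples lay on both sides of the controls, with 0.04 (SE 0.07).

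Deoxynucleotide supply rests on ribonucleotide reductase, thymidylate synthase and dUTPase. *Dut*, which encodes the dUTPase that keeps uracil out of DNA, had 1518, 1417 and 1412 in *Jarid2* WT and 1319, 1394 and 1290 in *Jarid2* Δpanc. The groups did not overlap and the log2 fold change was -0.12 (SE 0.05, limma adjusted p = 0.576). Its dimmer probe set had 0.02, with overlapping groups, so the difference rests on 1 probe set. The large reductase subunit *Rrm1* had 998, 1039 and 910 in *Jarid2* WT and 1018, 1096 and 1088 in *Jarid2* Δpanc. *Jarid2* WT replicate 2 lay within the range of the *Jarid2* Δpanc samples, at 0.12 (SE 0.06, limma adjusted p = 0.697). It was 0.07 without *Jarid2* WT replicate 3.

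*Rrm2*, the reductase subunit whose level follows S phase, had 2784, 2791 and 2891 in *Jarid2* WT and 2718, 2777 and 2905 in *Jarid2* Δpanc. Its groups coincided, and the 95% interval of the log2 fold change ran from -0.10 to 0.08. The thymidine kinase gene *Tk1* had 0.06, and the synthase gene *Tyms*, whose signals were 60 to 82, had -0.01. A dimmer *Tyms* probe set had 29 to 53 in *Jarid2* WT against 57 to 65 in *Jarid2* Δpanc. It had no overlap and a log2 fold change of 0.61, and is given with no test. The remaining *Tyms* probe sets had mean signals of 13.5 and 8.17, under the floor of 16.

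*E2f1*, an activator of S phase genes, had the largest fold change of the 48 and the largest SE. It had 83, 71 and 127 in *Jarid2* WT and 117, 127 and 126 in *Jarid2* Δpanc. *Jarid2* WT replicate 3 lay at the level of the *Jarid2* Δpanc samples, and the log2 fold change was 0.44 (SE 0.24, limma adjusted p = 0.710). Without that sample it was 0.68, without *Jarid2* WT replicate 2 it was 0.26, and with replicate 3 as the only control -0.04. A further probe set had 85 to 109 in *Jarid2* WT against 85 to 94 in *Jarid2* Δpanc, at -0.07. Replicate 3 is also the control with the muscle transcripts and with *Xist*, whose part in this value was not tested.

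The related activator gene *E2f2* had 0.00, with a 95% interval from -0.33 to 0.33. Cyclin E drives Cdk2 at the entry into S phase. *Ccne1* had 498, 373 and 412 in *Jarid2* WT and 451, 425 and 358 in *Jarid2* Δpanc. The spread within groups exceeded the difference of -0.05 (SE 0.15), and *Ccne2* had 0.09.

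Chromatin is rebuilt behind the fork by the assembly factor CAF-1 and by Uhrf1, which brings the maintenance methyltransferase to new DNA. *Chaf1b* had 226, 212 and 225 in *Jarid2* WT and 219, 251 and 282 in *Jarid2* Δpanc. *Jarid2* Δpanc replicate 1 lay among the controls, and the log2 fold change was 0.17 (SE 0.10, limma adjusted p = 0.751). It was 0.27 without that sample, 0.09 without *Jarid2* Δpanc replicate 3 and 0.03 with the mean of its probe sets. The most variable one gave -0.12, the opposite direction, at a mean signal of 17.8, near the floor of 16. *Uhrf1* had 790, 708 and 818 in *Jarid2* WT and 682, 802 and 803 in *Jarid2* Δpanc. Its groups overlapped throughout, with -0.02 (SE 0.09).

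**Figure D2:**
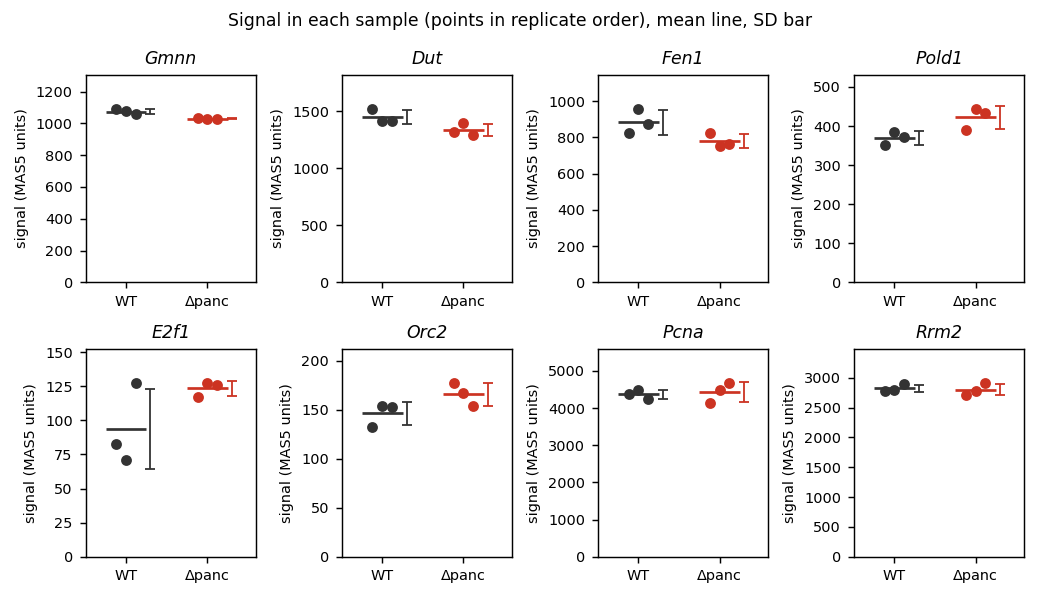
Signal (MAS5 units, vertical axis from 0) of 8 replication genes in the 3 *Jarid2* WT (dark) and 3 *Jarid2* Δpanc (red) samples, with a line at the mean and a bar for the SD. *Gmnn*, *Dut* and *Pold1* have groups that do not overlap, whereas *E2f1* has a control at 127 within the *Jarid2* Δpanc range of 117 to 127.

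Each sample was the highest of the 6 for some replication genes and the lowest for others. With the average of the *Jarid2* WT samples set to 0, their mean log2 signal was 0.01, -0.02 and 0.01 in *Jarid2* WT and 0.02, 0.03 and 0.04 in *Jarid2* Δpanc. On this score all *Jarid2* Δpanc samples lay slightly above all controls, unlike in the summed signal. Over all genes the 6 arrays lay between -0.02 and 0.02 on the same scale. *Jarid2* Δpanc replicate 1 was the lowest of the 6 samples in 12 genes and the highest in 7. *Jarid2* Δpanc replicate 2 was the lowest in 8 and the highest in 11. The muscle-rich control was the lowest in 3 and the highest in 6.

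**Figure D3:**
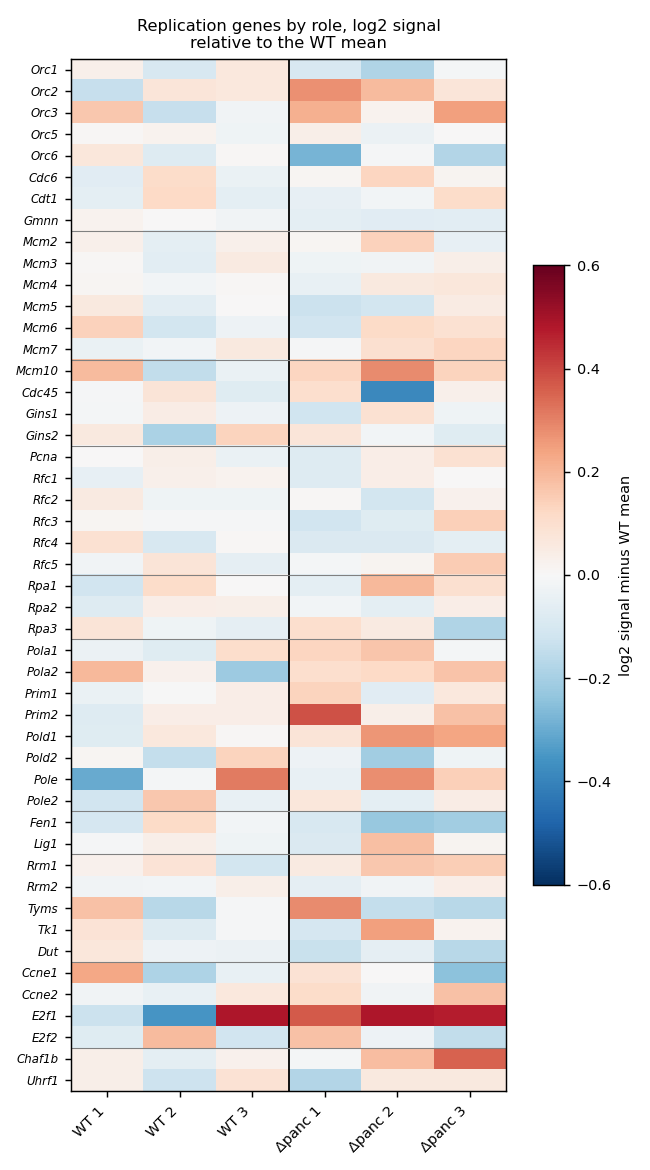
Log2 signal of 48 replication genes (rows, by role) in the 6 samples (columns) against the average of the 3 *Jarid2* WT samples, with red for higher and blue for lower. Most cells are pale, *Cdc45* is low in *Jarid2* Δpanc replicate 2, and *E2f1* is high in *Jarid2* WT replicate 3 and in all *Jarid2* Δpanc samples.

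Further probe sets leaned more to positive values than the ones used, which had a median log2 fold change of 0.02. The 48 genes have 104 probe sets, and 36 genes have more than 1. Of the 56 that did not stand for a gene, 35 had a mean signal of at least 64, with a median log2 fold change of 0.08 and a range from -0.19 to 0.71. In these, the *Jarid2* Δpanc samples lay below all controls in 1 and above in 2. Both of the latter read the clamp loader gene *Rfc1*, named after its values were seen. The *Tyms* probe set that lay above all controls fell under that level, at a mean signal of 50.5. Among all genes with a mean signal of at least 64, each read from its brightest probe set, 8.48% lay below and 7.5% above.

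The 3 probe sets of *Rfc1* moved apart. The one used for the gene, the brightest, had 410 to 433 in *Jarid2* WT against 403 to 437 in *Jarid2* Δpanc. Another had 353 to 363 in *Jarid2* WT against 393 to 427 in *Jarid2* Δpanc, which is 0.19 on the log2 scale. The dimmest had 67 to 70 in *Jarid2* WT against 106 to 115 in *Jarid2* Δpanc, which is 0.71 on the log2 scale. The groups were well apart in that probe set and coincided in the brightest. These 2 further probe sets are given with no test, and where each lies on the transcript was not analysed here.

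Other genes of replication and S phase leaned to slightly higher signals in *Jarid2* Δpanc pancreases. Of the 57 measured, 40 were positive, with a median log2 fold change of 0.06. By limma, 0 fell and 0 rose at an adjusted p under 0.05. The unadjusted p was under 0.05 in 10 genes, all of them positive, beside 4.36% of all genes higher and 4.44% lower at that p. All *Jarid2* Δpanc samples lay above all controls in 10 (17.5%, against 5.71% of all genes) and below in 1 (1.75%, against 5.66%). The 10 became 16 without *Jarid2* WT replicate 1, *Jarid2* WT replicate 3 or *Jarid2* Δpanc replicate 2, and 17 without *Jarid2* Δpanc replicate 1 (28.1% and 29.8%, beside 9.88% to 10.8% of all genes in those 4 sets of 5 samples). The median was 0.11 without *Jarid2* Δpanc replicate 1 and 0.03 without *Jarid2* Δpanc replicate 3.

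*Mcmbp*, a binding partner of the Mcm ring, had 398, 397 and 404 in *Jarid2* WT and 450, 467 and 460 in *Jarid2* Δpanc. The samples of each group were close together and the groups were apart, at a log2 fold change of 0.20 (SE 0.02, limma adjusted p = 0.218). In the most variable of its 3 probe sets the value was negative, -0.15, and with their mean it was 0.03. The E2F-regulated chromatin ATPase *Atad2* had 779, 804 and 791 in *Jarid2* WT and 893, 921 and 960 in *Jarid2* Δpanc. Its groups did not overlap, at 0.22 (SE 0.03, limma adjusted p = 0.247), and the mean of its probe sets gave 0.09.

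*Fbxo5* encodes Emi1, an inhibitor of the anaphase-promoting complex during S and G2. It had 522, 474 and 480 in *Jarid2* WT and 554, 580 and 575 in *Jarid2* Δpanc. The groups were apart, with a log2 fold change of 0.21 (SE 0.05, limma adjusted p = 0.342). The initiation and checkpoint factor *Topbp1* had 1211, 1206 and 1165 in *Jarid2* WT and 1268, 1265 and 1328 in *Jarid2* Δpanc, which did not overlap either, with 0.11 (SE 0.03, limma adjusted p = 0.416). The value was 0.41 with the mean of its probe sets and 0.71 with the most variable one.

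Genes of G2 and mitosis, the phases that follow, were set beside those of replication. Of 29 measured in a list of 30 (*Ccnb1* was not analysed here), 25 were positive, with a median log2 fold change of 0.14. By limma, 0 fell and 0 rose at an adjusted p under 0.05. The 10 genes with an unadjusted limma p under 0.05 were all positive, beside 4.36% of all genes higher and 4.44% lower. The *Jarid2* Δpanc samples lay above all controls in 12 (41.4%, against 5.71% of all genes) and below in 0 (against 5.66%). The median was 0.09 without *Jarid2* Δpanc replicate 2. The number above was 8 with each array centred on its median, and 7 with the most variable probe set of each gene. Shares over all genes under those settings were not counted here.

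The proliferation marker *Mki67* had 2139, 2177 and 2196 in *Jarid2* WT and 2469, 2425 and 2451 in *Jarid2* Δpanc. The gap between groups exceeded the range within either, and the log2 fold change was 0.17 (SE 0.02, limma adjusted p = 0.218). The mitotic kinase gene *Aurka* had 391, 439 and 439 in *Jarid2* WT and 542, 499 and 540 in *Jarid2* Δpanc, which did not overlap, with 0.32 (SE 0.06, limma adjusted p = 0.319). With the mean of its probe sets *Aurka* had 0.19, and with the most variable one 0.05. *Top2a*, the topoisomerase that untangles replicated chromosomes, had 2419, 2673 and 2536 in *Jarid2* WT and 2761, 2989 and 2760 in *Jarid2* Δpanc. The groups were again apart, at 0.16 (SE 0.05, limma adjusted p = 0.522), and the most variable probe set gave 0.32. The mitotic kinase *Cdk1* had 0.09 (SE 0.05), with overlapping groups.

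The mean log2 signal of the G2 and mitosis genes relative to the controls was 0.10, 0.16 and 0.11 in the *Jarid2* Δpanc samples. The same samples had 0.02, 0.03 and 0.04 for the 48 replication genes. Whether the lists differ from each other was not tested. Their promoters differed in letters: TTTGAA or TTCGAA, the forms of the CHR motif searched on both strands, was in 80.8% of 26 windows of G2 and mitosis genes, 17.1% of those of the 41 replication genes and 21.7% of all genes. The E2F motif was in 3.85%, 36.6% and 2.6% of them.

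**Figure D4:**
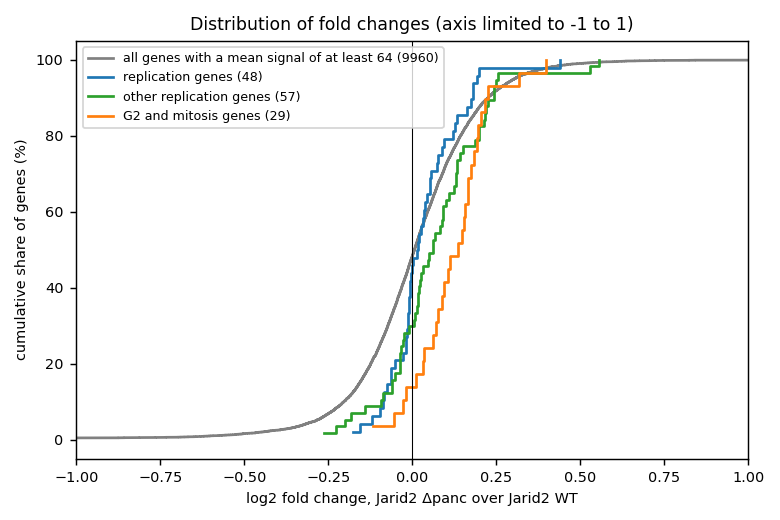
Cumulative share of genes (vertical axis, %) by log2 fold change of *Jarid2* Δpanc over *Jarid2* WT (horizontal axis, shown from -1 to 1) for 48 replication genes, 57 other replication genes, 29 G2 and mitosis genes and 9960 genes with a mean signal of at least 64. The replication curve crosses 50% at 0.02 and the G2 and mitosis curve at 0.14.

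Markers of the cell types in the organ were set beside the replication genes. Acinar markers were negative in 10 of 10 measured genes, with a summed signal of 72456 to 83471 in *Jarid2* WT against 57807 to 69592 in *Jarid2* Δpanc. Endocrine markers were negative in 10 of 10, with 18791 to 21945 in *Jarid2* WT against 10986 to 12839 in *Jarid2* Δpanc. The groups were apart in both sums. The study picked genes of both compartments on these samples, so the lists are no independent evidence of direction.

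Progenitor and duct markers had 14257 to 15519 in *Jarid2* WT against 12708 to 14581 in *Jarid2* Δpanc, with 4 of 8 genes positive. Mesenchyme markers had 27142 to 32005 in *Jarid2* WT against 29783 to 33834 in *Jarid2* Δpanc, with 9 of 10 positive and overlapping groups. Macrophage markers had 1727 to 2382 in *Jarid2* WT against 2132 to 2579 in *Jarid2* Δpanc, which overlapped as well. The part of cell composition in the values of the replication genes was not tested.

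**Figure D5:**
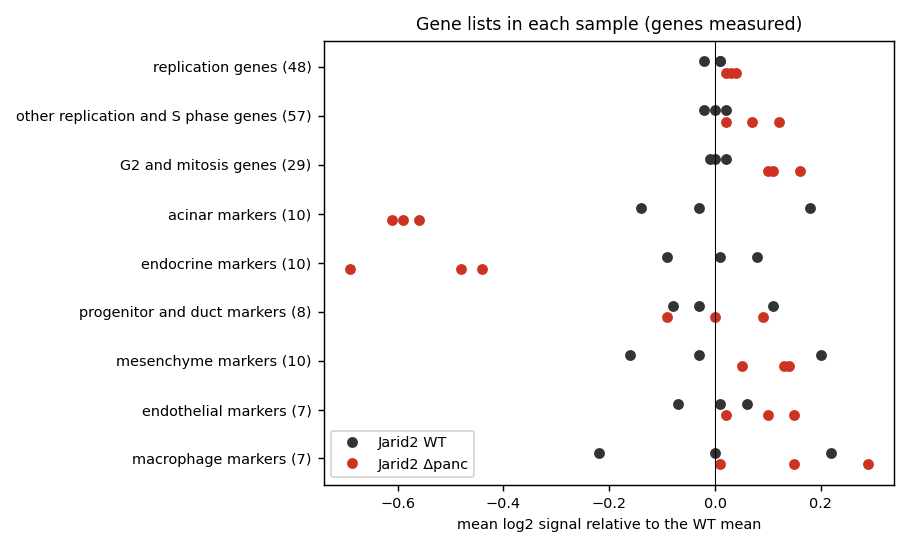
Mean log2 signal (horizontal axis) of 9 gene lists, set to 0 at the average of the 3 *Jarid2* WT samples. Each sample is a point, dark for *Jarid2* WT or red for *Jarid2* Δpanc, and the number of genes measured stands beside each name. The *Jarid2* Δpanc points lie at 0.02 to 0.04 for the replication genes, at 0.10 to 0.16 for G2 and mitosis genes and at -0.61 to -0.56 for acinar markers.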

How the data were processed

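The authors deposited intensities for 45101 probe sets on each of 6 arrays, 3 per group, made with MAS5 per the submitters' notes, whose version is not given in the sources used here. They are linear whole numbers with a mean of 150 per array after 2% was trimmed at each end. MAS5 treats each array alone. The methods name RMA and LIMMA for the study's own analysis, and RMA needs scanner files that were not used here. One description label names islets in glucose, and the other labels, which name e15.5 pancreas, were followed. No scan dates or batches were given.

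A floor of 16 was applied before the log2 step. Of 35890 annotated probe sets, 34958 carry 1 symbol. The 932 with several and the 9211 unnamed were left out. Each of 18194 genes was read from its brightest probe set by mean, and 1594 of them lay at the floor on all arrays. The comparison used limma 3.58.1 under R 4.3.3 (4 residual and 0.604 prior degrees of freedom) and Benjamini-Hochberg adjustment over all genes. Intervals take the same fit. The fit was checked on simulated data. Below the floor lay 26.5% to 29% of probe sets on an array, and the number of arrays limits the precision. The labels number the embryos of each group, and p-values measure the spread between these samples.

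Members and lists were chosen with earlier results of these data known. Genes given in every sample were those with an unadjusted p under 0.05 or groups that do not overlap and, per role, the one with the highest mean signal and the one with the largest fold change. Of other replication genes the 4 with the smallest p were named, and of G2 and mitosis genes the 2 with the smallest p, *Mki67*, *Top2a* and *Cdk1*. Sequences come from RefSeq tables of GRCm38.p6, and the windows of 805 overlapping pairs on opposite strands were reverse complements in 805.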

Additional observations from a re-analysis of the deposited data

How the results depend on the processing

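Over 18 alternatives, 0 of the 48 replication genes and 0 of the other replication genes passed an adjusted p of 0.05 in either direction (limma), and the lowest adjusted p of 29 named genes was 0.18. The median of the 48 genes was -0.01 with each array centred on its median, 0.04 with quantile normalization, 0.05 with the mean of all probe sets of a gene, 0.05 with the most variable probe set, and 0.01 to 0.04 without any single sample, the highest without *Jarid2* Δpanc replicate 1. The median of the other replication genes was 0.12 with the most variable probe set and 0.03 to 0.11 without any single sample, and that of G2 and mitosis genes 0.09 to 0.15. Of 522 values of named genes, 28 had the opposite sign to the reported one, among them *Dut* at 0.02 and *Mcmbp* at -0.15, both with the most variable probe set. The replicate block, floors of 1 or 64, and leaving out dim genes or genes at the floor repeat the reported fold changes. These repeats, which could not change sign, are counted in the 522.

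At an unadjusted p under 0.05 (limma), 1 replication gene was lower and 1 higher. The number lower was 0 with quantile normalization, arrays centred on the median, values floored at 1, log2 of value plus 16, dim genes left out or genes at the floor left out, 2 with the mean of all probe sets, and 1 to 3 without any single sample (3 without *Jarid2* Δpanc replicate 2, and 2 without *Jarid2* WT replicate 1, *Jarid2* WT replicate 2 or *Jarid2* Δpanc replicate 3). The number higher was 2 with the replicate number as a block, 3 with quantile normalization, 3 with the mean of all probe sets, 2 with *Jarid2* WT replicate 3 as the only control, 0 with arrays centred, a floor of 1, log2 of value plus 16, dim genes left out or genes at the floor left out, and 0 to 4 without any single sample (4, 2 and 0 without *Jarid2* Δpanc replicates 1, 2 and 3). Leaving out flat genes raises the prior degrees of freedom from 0.604 to 2.22, which widens the small standard errors. The count of 2 genes below all controls was 1 with quantile normalization, 1 with the most variable probe set and 2 to 6 without any single sample. The count of 1 above was 4 with quantile normalization, 0 with arrays centred, 5 with the mean of all probe sets, 2 with the most variable probe set and 3 to 6 without any single sample, where fewer samples make separation more frequent. Without any single sample, 8.58% to 10.5% of all genes lay below all controls and 9.56% to 10.8% above. The number above was then 11 to 17 for other replication genes (19.3% to 29.8%) and 12 to 17 for G2 and mitosis genes (41.4% to 58.6%). For G2 and mitosis genes it was 7 with the most variable probe set. Shares over all genes under the other settings were not counted here. The cause of these differences was otherwise not tested.

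Same-numbered samples did not pair (correlation of their deviations -0.07 to -0.03), and the replicate block changed no call at an adjusted p under 0.05. The fits without genes at the floor and with a single control were chosen after seeing the data.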
